A study of Mus musculus with 62 samples.

Results

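The collagen gene family was followed in whole mouse hearts during melanoma growth. Its members were all rows of the expression table whose symbol has the form Col, a type number, the letter a and a chain number, and 44 of the 47643 symbols in the table met this rule. Messenger RNA was sequenced from hearts of female mice that were 2 months old and that had been given cachectic melanoma cells (CAC), which bring on the wasting syndrome cachexia, non-cachectic melanoma cells (NCAC), or only a mock treatment (Con). Hearts were taken at weeks 2, 4, 6 and 8 after injection. The 12 groups held 5 libraries each, except CAC at week 8 with 7 and Con at week 4 with 4. 1 further Con library of week 4 (replicate 2) was left out by the rule, and 89.1% of its TPM was mitochondrially encoded RNA. The labels speak of biological replicates and give each library its own heart number, and batches and dates are not labelled. The sample labels give the strain as C57BL6/J, whereas the design text names NCI Ath/nude mice, which lack a thymus and so most T cells. No allele was compared between groups, all groups share the strain and sex, and the mock groups received no tumour. Since the tumour arms carry different melanoma cells, wasting and the kind of cell cannot be told apart. All values are TPM, a level per transcript length that is scaled to the same total in every library, so levels can be set side by side between genes.

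Collagens are secreted proteins made of 3 chains wound into a triple helix, and each chain has its own gene. Types I, III and V form the cross-banded fibrils of the cardiac interstitium and are made mostly by fibroblasts. Type IV forms the sheet-like network of basement membranes around capillaries and cardiomyocytes, type VI forms beaded filaments beside it, and types XV and XVIII sit at the border of basement membranes and carry endostatin-like ends. In the heart, an excess of fibrillar collagen is known as fibrosis, and the stiffness of the ventricle depends on how much is deposited and crosslinked. In whole-tissue RNA, fewer cells of a type and less RNA per cell cannot be told apart.

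The start regions of 4 members are shown because these genes carry the main patterns: Col4a1 and Col4a2 are the most abundant pair and share a start region, Col6a5 had the largest rise and Col15a1 the largest fall at week 8. Each window runs 5′ to 3′ on the gene's own strand from 250 bases before to 50 bases after the RefSeq start (GRCm38.p6, the patch release of the mm10 assembly the submitters name). Capitals mark matches, on either strand, to TTCNNNGAA (the palindromic site that STAT factors recognise), to TATAAA (the TATA box), to CCAAT (the CCAAT box) or to GGGCGG (the GC box). The windows are Col4a1 at chr8:11312777-11313076 on the minus strand, Col4a2 at chr8:11312555-11312854 on the plus strand, Col6a5 at chr9:105960594-105960893 on the minus strand and Col15a1 at chr4:47207762-47208061 on the plus strand.
Col4a1: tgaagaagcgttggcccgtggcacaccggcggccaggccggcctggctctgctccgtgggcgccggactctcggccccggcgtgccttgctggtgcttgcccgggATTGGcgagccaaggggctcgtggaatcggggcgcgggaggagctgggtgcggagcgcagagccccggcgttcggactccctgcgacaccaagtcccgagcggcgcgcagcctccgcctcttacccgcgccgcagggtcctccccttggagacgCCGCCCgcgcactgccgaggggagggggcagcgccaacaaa
Col4a2: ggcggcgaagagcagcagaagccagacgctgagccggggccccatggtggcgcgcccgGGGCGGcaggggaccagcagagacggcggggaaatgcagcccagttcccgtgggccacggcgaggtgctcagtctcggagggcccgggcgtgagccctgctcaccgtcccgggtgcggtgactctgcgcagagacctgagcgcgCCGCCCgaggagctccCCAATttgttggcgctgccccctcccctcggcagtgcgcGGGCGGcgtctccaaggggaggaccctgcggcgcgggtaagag
Col6a5: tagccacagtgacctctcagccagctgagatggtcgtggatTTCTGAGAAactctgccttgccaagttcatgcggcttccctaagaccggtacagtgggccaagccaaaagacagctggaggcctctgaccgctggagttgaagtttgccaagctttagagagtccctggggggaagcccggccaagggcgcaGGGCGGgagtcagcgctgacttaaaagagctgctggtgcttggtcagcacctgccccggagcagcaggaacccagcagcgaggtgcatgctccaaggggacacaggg
Col15a1: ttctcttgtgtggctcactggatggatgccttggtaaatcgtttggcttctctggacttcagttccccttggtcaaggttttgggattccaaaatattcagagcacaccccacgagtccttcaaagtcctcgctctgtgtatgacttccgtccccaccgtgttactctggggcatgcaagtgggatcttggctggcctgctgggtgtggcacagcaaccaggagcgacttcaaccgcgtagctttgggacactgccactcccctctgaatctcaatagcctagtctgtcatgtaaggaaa

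Col4a1 and Col4a2 start 21 bases apart on opposite strands of chromosome 8, and their windows share 78 bases, read from opposite strands. No marked matches overlap within these 4 windows. The Col6a5 window held 1 STAT-type match, at position -209 from the start, and 1 GC box, whereas the Col15a1 window held none of the 4 letter patterns. In GENCODE M21 Col15a1 starts at chr4:47208161, beyond the end of its window, so that window rests on the RefSeq start alone. In all, 35 members matched the RefSeq table, with 38 windows. Of these windows 2 held TTCNNNGAA (Col6a5 and Col28a1), against 8.3% of all 32851 windows of this length in the table. TATAAA was in 5 collagen windows (13.6% of all windows), CCAAT in 13 (37.4%) and GGGCGG in 23 (35.7%). A match is a string of letters and was not tested for binding.

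The family was dominated by a few chains. Col4a1 averaged 92.1 TPM over the 61 libraries, Col4a2 75.3, Col3a1 40.9, Col6a1 33.3 and Col15a1 25.2, and these 5 genes held 66% of the summed collagen level. The other members that reached a mean of 10 TPM in some group were Col1a1, Col1a2, Col6a2, Col4a5, Col5a1 and Col8a1, which makes 11 of 44. The basement membrane chains Col4a1 and Col4a2 therefore stood above the type I chains, at 22.6 TPM for Col1a1 and 18.9 for Col1a2. 19 members were at or above 1 TPM on average in every group. Col11a2, Col4a4, Col20a1, Col23a1 and Col6a5 reached that mean only in some groups. The remaining 20 were under 1 TPM in all 12 groups: Col2a1, Col11a1 and Col24a1 (fibrillar), Col4a3 and Col4a6 (basement membrane), Col6a4 (type VI), Col9a1, Col9a2, Col9a3, Col12a1, Col19a1 and Col22a1 (fibril-associated), Col8a2 and Col10a1 (short-chain networks), Col13a1, Col17a1 and Col25a1 (transmembrane), and Col7a1, Col26a1 and Col28a1 (other types). Of these, 8 were under 0.1 TPM in every group, including the cartilage chains Col2a1, Col9a1 and Col10a1, which were at 0 in 26, 50 and 51 of the 61 libraries.

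**Figure D1:**
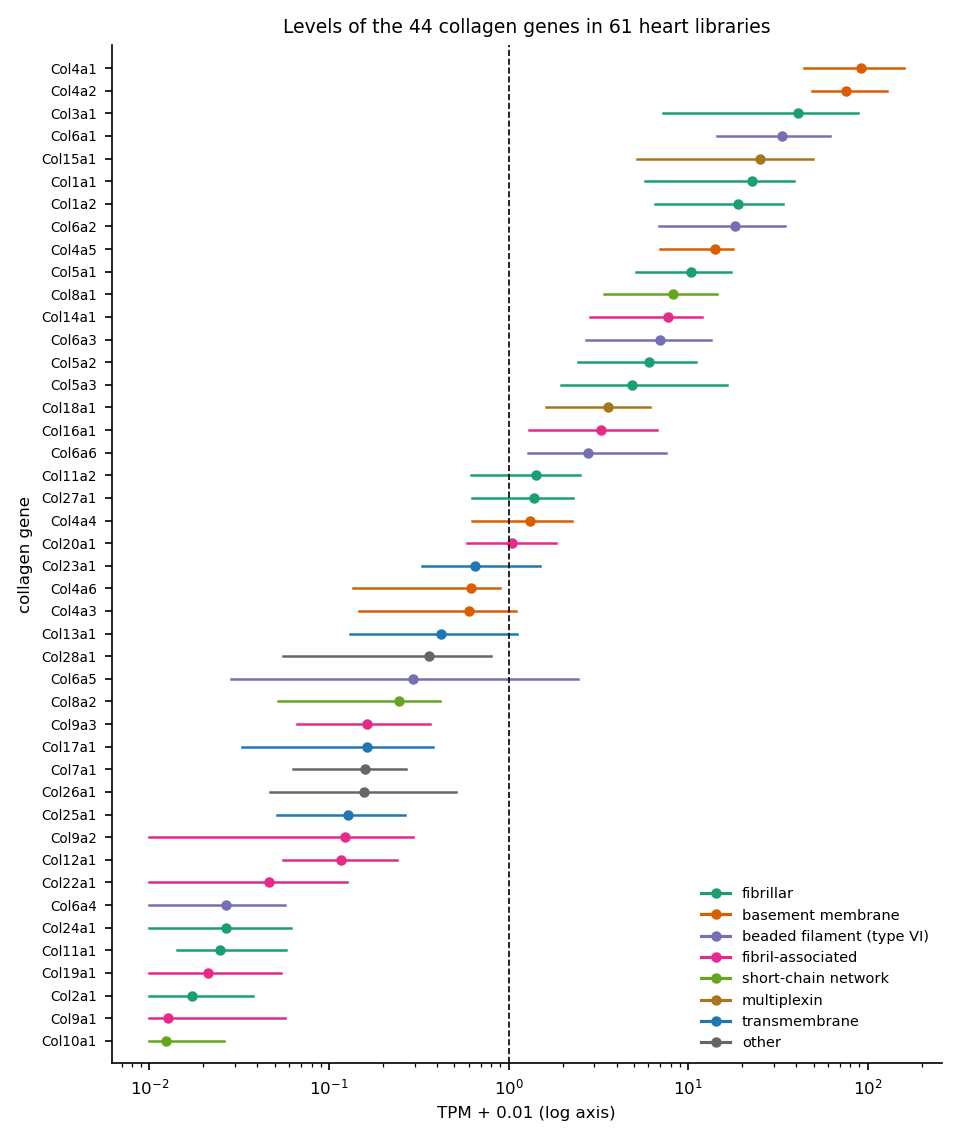
Levels of all 44 collagen genes, as TPM + 0.01 on a log axis. Points are means over 61 libraries, lines run from the lowest to the highest library, colours give the collagen class, and the dashed line marks 1 TPM. Col4a1 and Col4a2 stand highest, and 20 genes have all 12 group means under 1 TPM.

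At week 8 the calls of CAC against mock hearts went in both directions on the deposited scale: 5 of 24 tested collagens rose and 4 fell. Col6a5, Col6a6, Col16a1, Col20a1 and Col23a1 were higher, and Col15a1, Col4a4, Col11a2 and Col8a1 were lower. None of the 9 is a chain of the main type I or III fibrils. Over all 12541 genes tested, 50.8% were called higher and 9.98% lower in this comparison, against 20.8% and 16.7% of the collagens. The median difference of the collagens was -0.13 on the log2(TPM + 1) scale, beside 0.19 for all genes. A gene was called at a Benjamini-Hochberg adjusted p under 0.05 in limma, fitted over every gene that reached 1 TPM in 5 libraries or more. Col6a5 and Col23a1 passed that filter only through CAC libraries of weeks 6 and 8 and so had to differ, and without them 3 of 22 were higher and 4 lower. TPM is a share of each library, and the scaling set the balance: after median-of-ratios rescaling, which took the all-gene median to 0.01, 4 of the 23 collagens then tested were called higher and 10 lower (26.8% and 24.9% of all genes). After rescaling without mitochondrially encoded and haemoglobin genes, 28 collagens passed the filter, and of the 24 above 4 were higher and 9 lower, with 6 and 10 over all 28 (27.7% and 21% of all genes). Col6a5, whose rise the filter fixed as deposited, was among the higher in both rescalings. Col23a1 was not tested by median of ratios and was among the higher in the other rescaling.

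CAC replicate 3 of week 8 stood apart from its group: Serpina3n, an acute-phase protease inhibitor, was at 54.9 TPM there and between 1665 and 2841 TPM in each other CAC heart of that week. Without it the counts were 5 higher and 4 lower against Con, and 9 higher and 3 lower against NCAC. Col6a5 and Col23a1, which passed the filter only through CAC libraries, were among the higher in both. The share of all genes called without this library is not given, so these counts cannot be set against it.

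Against the NCAC hearts, which carried a tumour without wasting, 9 of 24 collagens were higher at week 8 and Col4a4 was lower. All genes gave 57.4% higher and 8.76% lower, against 37.5% and 4.17% of the collagens, with medians of 0.24 for all genes and 0.28 for collagens. Leaving out Col6a5 and Col23a1, the counts were 7 of 22 higher and 1 lower. By median of ratios 6 of 23 were higher and 3 lower (27.2% and 24.5% of all genes). Without mitochondrial and haemoglobin genes 7 of the 24 were higher and 3 lower, and 9 and 4 of all 28 (39.4% and 14.7% of all genes). Col6a5 was again among the higher in both rescalings, and Col23a1 in the one without mitochondrial and haemoglobin genes. Both comparisons use the same CAC libraries, so their calls are not independent of each other.

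**Figure D2:**
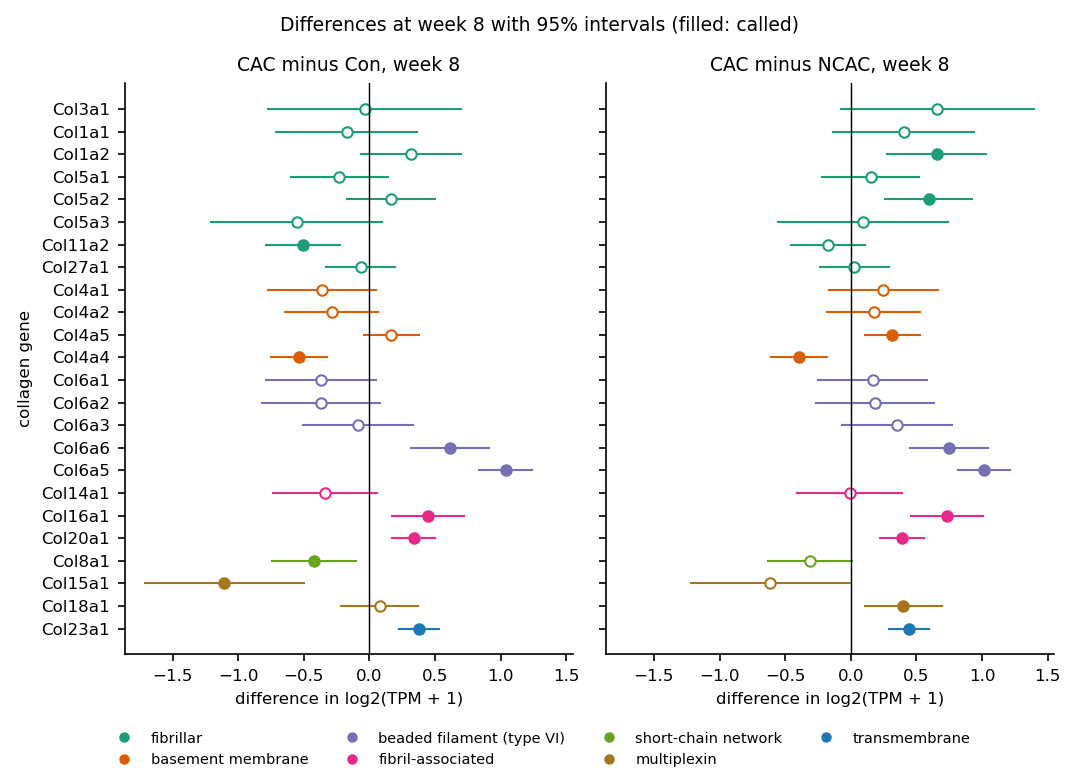
Differences at week 8 in log2(TPM + 1) for the 24 tested collagens, CAC minus Con (left) and CAC minus NCAC (right). Points are limma estimates with 95% intervals, filled where called, and colours give the class. The main fibrillar and type IV chains straddle 0 against Con, while Col6a5 and Col6a6 lie to the right and Col4a4 to the left in both panels.

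Among the fibrillar collagens, the type I and III chains did not pass the test against mock hearts at week 8. Col1a1, the first type I chain, was measured in Con libraries at 25.5, 38.6, 30.7, 24.2 and 24.8 TPM, in NCAC at 21.7, 26.2, 5.77, 18.3 and 35.4 TPM, and in CAC with a lowest, median and highest value of 12.6, 27.6 and 35.9 TPM. The groups overlapped widely, and the CAC minus Con difference was -0.17 ± 0.27 (SE; 95% interval -0.71 to 0.36). For Col1a2, the second type I chain, Con libraries were at 16.7, 24.3, 20.3, 17.9 and 19.6 TPM, NCAC at 17.6, 19.2, 6.55, 15.9 and 23 TPM, and the lowest, median and highest CAC libraries at 16.7, 26.4 and 33.6 TPM. 4 of 7 CAC libraries were above all NCAC libraries, and Col1a2 was higher in CAC than in NCAC by 0.65 ± 0.19 (limma adjusted p = 0.00232). Without NCAC replicate 3, the lowest NCAC library, that adjusted p was 0.0561. Against Con the Col1a2 difference was 0.32 ± 0.19 (adjusted p = 0.144, limma).

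Col3a1, the single chain of type III collagen, differed between the libraries of a group by more than its group means did. Con libraries were at 45, 76.1, 54.9, 41.3 and 40.3 TPM, NCAC at 35.3, 50.5, 7.2, 31.1 and 62.4 TPM, and CAC had 18.8, 57.5 and 88.4 TPM as its lowest, median and highest. The CAC range enclosed the whole Con range, with a difference of -0.03 ± 0.37 (95% interval -0.77 to 0.70), whose sign turned when CAC replicate 1 or 6 or Con replicate 2 was left out. Col5a1 and Col5a2 are chains of type V collagen, which nucleates type I fibrils. Col5a1 was at 10.9, 17.4, 13.9, 12 and 10.4 TPM in Con, 10.4, 10.9, 5.13, 9.1 and 14.4 TPM in NCAC and 6.13, 11.3 and 14.9 TPM (lowest, median, highest) in CAC, with overlapping groups, and Col5a1 was called lower against Con by median of ratios (-0.42, limma adjusted p = 0.0312) and not without mitochondrial and haemoglobin genes (adjusted p = 0.0571). Col5a2 was at 5.99, 8.69, 7.42, 6.24 and 5.96 TPM in Con and 5.42, 5.76, 2.42, 4.78 and 6.52 TPM in NCAC, and ran over 4.62, 7.75 and 11 TPM in CAC. For Col5a2, 6 of 7 CAC libraries stood above all NCAC libraries, and the rise against NCAC was 0.59 ± 0.17 (limma adjusted p = 0.00179), beside 0.16 ± 0.17 against Con, which was not called.

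The remaining fibrillar members were low. Col11a2, a chain of type XI collagen best known from cartilage, was at 1.02, 2.19, 1.8, 2.02 and 1.81 TPM in Con, 1.83, 1.05, 0.618, 1.26 and 1.25 TPM in NCAC and 0.608, 0.91 and 1.33 TPM (lowest, median, highest) in CAC. 5 of 7 CAC libraries were below all Con libraries, and Col11a2 fell by 0.51 ± 0.14 against Con (adjusted p = 0.00175, limma). Col5a3 and Col27a1 were called in none of the 18 comparisons. Col5a3 varied strongly within groups, from 3.52 to 16.4 TPM in Con at week 8.

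The main basement membrane pair was lower in the mean of CAC than of Con but did not pass the test. Col4a1 was at 109, 159.8, 142, 106 and 89.3 TPM in Con, 81.3, 89.8, 44.2, 69.1 and 124 TPM in NCAC and 71.9, 99.2 and 119 TPM (lowest, median, highest) in CAC. Its partner Col4a2, the second chain of the same network, was at 85, 128, 99.5, 93.1 and 67.7 TPM in Con, 69.2, 70.8, 48.8, 61 and 92.3 TPM in NCAC and 60.9, 78.4 and 96.2 TPM in CAC. For both genes the Con group held the highest library and the NCAC group the lowest, and the CAC libraries lay between. The CAC minus Con differences were -0.36 ± 0.21 for Col4a1 and -0.29 ± 0.18 for Col4a2 (adjusted p = 0.125 and 0.153, limma). Under the rescalings the pair was called lower: -0.57 for Col4a1 and -0.50 for Col4a2 by median of ratios (adjusted p = 0.00862 and 0.00687, limma), and -0.55 and -0.48 without mitochondrial and haemoglobin genes.

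Col4a4, a minor type IV chain known from kidney and cochlear basement membranes, fell in CAC. Con libraries were at 1.28, 1.86, 1.57, 1.76 and 1.73 TPM, NCAC at 1.64, 1.34, 0.953, 1.31 and 1.76 TPM and CAC at 0.645, 0.817 and 1.03 TPM (lowest, median, highest). All 7 CAC libraries were below every Con library, as for 3.4% of all genes tested, and 6 were below every NCAC library. The differences were -0.54 ± 0.11 against Con and -0.40 ± 0.11 against NCAC (limma adjusted p = 2.49e-05 and 0.00107). Col4a5, which pairs with minor type IV chains, was at 11.9, 16.1, 13.2, 14.1 and 13.5 TPM in Con, 13.7, 14.1, 6.96, 14.6 and 13.7 TPM in NCAC and 12.4, 15.3 and 17.8 TPM in CAC. The NCAC group held 1 library well below the rest (replicate 3), and the call of Col4a5 higher in CAC than in NCAC, 0.32 ± 0.10 with limma adjusted p = 0.00669, was lost without it and under both rescalings, where the largest adjusted p was 0.457.

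The type VI chains divided. Col6a1, Col6a2 and Col6a3 form the classical type VI trimer, and none was called at week 8 on the deposited scale. Col6a1 was at 37.6, 61.6, 46.2, 38.5 and 39.3 TPM in Con, 33.1, 38.2, 14.6, 28.2 and 45.9 TPM in NCAC and 20.7, 33.5 and 50.5 TPM (lowest, median, highest) in CAC. Col6a2 was at 21.1, 34.5, 26.5, 21.3 and 20.4 TPM in Con, 17.9, 21.5, 6.88, 15.4 and 26.6 TPM in NCAC and 11.4, 18.9 and 26.7 TPM in CAC. In both genes 1 CAC library or more lay within the Con range while 4 or 5 lay below it, and the differences were -0.37 ± 0.21 for Col6a1 and -0.37 ± 0.22 for Col6a2 (adjusted p = 0.121 and 0.15, limma). By median of ratios both were called lower against Con, at -0.57 for either gene (limma adjusted p = 0.00953 for Col6a1 and 0.0185 for Col6a2), and likewise without mitochondrial and haemoglobin genes (-0.56, adjusted p = 0.0207 and 0.0345). Col6a3 averaged 8.73 ± 3.37 TPM in CAC (n = 7) and 8.86 ± 1.87 TPM in Con (n = 5, SD).

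Col6a5 and Col6a6 encode alternative chains that can take the place of Col6a3, and both rose in CAC. Col6a6 was at 2.34, 3.19, 2.33, 3.19 and 2.59 TPM in Con, 2.56, 3.46, 1.5, 1.73 and 3.04 TPM in NCAC and 2.98, 4.47 and 7.55 TPM (lowest, median, highest) in CAC. 6 of 7 CAC libraries were above all Con libraries, with differences of 0.61 ± 0.15 against Con and 0.75 ± 0.15 against NCAC (limma adjusted p = 0.00044 and 2.49e-05). Col6a5 was at 0.0806, 0.0309, 0.0511, 0.07 and 0.0486 TPM in Con, 0.0833, 0.059, 0.0604, 0.0509 and 0.109 TPM in NCAC and 0.34, 1.24 and 2.42 TPM in CAC. Every CAC library exceeded every mock and NCAC library, as for 9.78% of all genes against Con and 14.8% against NCAC, and the lowest CAC library was replicate 3. The mean of 1.25 ± 0.658 TPM (SD, n = 7) against 0.0562 ± 0.0195 TPM (n = 5) is a ratio of 22.2, and on the log2(TPM + 1) scale, which compresses low values, the difference was 1.04 ± 0.10 (adjusted p = 2.15e-12, limma). Since Col6a5 passed the filter only through CAC libraries of weeks 6 and 8, a rise was fixed in advance and that p does not test it. The 2 genes and Col6a4 lie in a row on the minus strand of chromosome 9, Col6a6 at chr9:105687809-105828160 and Col6a5 at chr9:105856078-105960643 (GRCm38, GENCODE M21). Col6a4 stayed under 0.1 TPM in every group, and exons of Col6a6 overlap the antisense gene Gm38314.

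On the deposited scale the fibril-associated chains that were called rose. Col16a1, which sits on fibrils and near basement membranes, was at 2.61, 3.73, 3.36, 3.33 and 3.48 TPM in Con, 3.05, 2.6, 1.29, 2.53 and 3.52 TPM in NCAC and 3, 5.08 and 6.67 TPM (lowest, median, highest) in CAC. 5 of 7 CAC libraries were above all Con libraries, with differences of 0.45 ± 0.14 against Con and 0.73 ± 0.14 against NCAC (limma adjusted p = 0.00434 and 7.84e-06), and the call against Con was lost (adjusted p = 0.0566) after rescaling without mitochondrial and haemoglobin genes. Col20a1 was at 0.693, 1.24, 1.06, 1.07 and 0.971 TPM in Con, 1.03, 0.959, 0.668, 1.02 and 0.978 TPM in NCAC and 1.13, 1.52 and 1.83 TPM in CAC. All but 1 of the CAC libraries were above every Con library, and Col20a1 rose by 0.34 ± 0.08 against Con and 0.39 ± 0.08 against NCAC (limma adjusted p = 0.000512 and 6.49e-05). An exon of Col20a1 overlaps BX649560.1 on the same strand, so reads could be split between them. Col14a1, which binds the surface of type I fibrils and was the most abundant member of this class at 9.05 ± 1.11 TPM in Con (SD, n = 5), was not called on that scale. It was called lower against Con under both rescalings (-0.52 by median of ratios and -0.54 without mitochondrial and haemoglobin genes, limma adjusted p = 0.0176 and 0.0318).

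Of the networks and multiplexins, Col15a1 had the largest fall in the family. Col15a1 encodes type XV collagen, which anchors basement membranes of capillaries and muscle to the surrounding fibrils. Con libraries were at 33.4, 49.6, 38.8, 33.5 and 26.2 TPM, NCAC at 28.9, 34.2, 10.1, 24.4 and 39 TPM and CAC at 6.15, 15.7 and 25.8 TPM (lowest, median, highest). Every CAC library was below every Con library, while the CAC and NCAC ranges overlapped. The CAC mean was 17.4 ± 7.21 TPM (SD, n = 7) beside a Con mean of 36.3 ± 8.68 TPM (n = 5), and the difference of -1.11 ± 0.30 was called against Con (limma adjusted p = 0.00152) and not against NCAC (-0.61 ± 0.30, adjusted p = 0.0682). Under the rescalings it was called against NCAC too, at -0.86 by median of ratios and -0.78 without mitochondrial and haemoglobin genes (limma adjusted p = 0.0113 and 0.0315). Exons of Col15a1, at chr4:47208161-47313167 (GRCm38), overlap the antisense gene Gm12426.

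Col18a1, the other multiplexin and the source of endostatin, was not called lower. It was at 3.48, 4.85, 4.48, 3.76 and 3.86 TPM in Con, 3.58, 2.97, 1.67, 2.95 and 4.71 TPM in NCAC and 3.02, 4.43 and 6.13 TPM in CAC. Its difference was 0.08 ± 0.15 against Con and 0.40 ± 0.15 against NCAC, where it was called (limma adjusted p = 0.0151) but not without NCAC replicate 3 or under either rescaling (largest adjusted p = 0.231). Col8a1, a short-chain collagen of vessel walls, was at 6.97, 9.33, 9.96, 8.94 and 9.43 TPM in Con, 8.04, 9.28, 5.76, 8.46 and 9.59 TPM in NCAC and 3.4, 6.48 and 9.34 TPM in CAC. 4 of 7 CAC libraries were below all Con libraries. Col8a1 fell by 0.42 ± 0.16 against Con (limma adjusted p = 0.0202), but missed the threshold when CAC replicate 6 or Con replicate 3 was left out (largest adjusted p over all alternatives, 0.202).

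Col23a1, a transmembrane collagen, rose in CAC. It was at 0.686, 0.592, 0.724, 0.575 and 0.487 TPM in Con, 0.616, 0.492, 0.524, 0.577 and 0.474 TPM in NCAC and 0.552, 1.16 and 1.49 TPM (lowest, median, highest) in CAC. CAC replicate 3 lay among the Con values and the other 6 lay above them all, with differences of 0.38 ± 0.08 against Con and 0.44 ± 0.08 against NCAC (limma adjusted p = 4.41e-05 and 2.32e-06). Col23a1 also passed the filter only through CAC libraries of weeks 6 and 8, so these p-values do not test its rise. The 20 members under 1 TPM were tested in a fit without a filter on low values, over 23360 genes. There, at week 8, CAC minus Con gave 5 higher and 4 lower (30.9% and 6.8% of all genes), and CAC minus NCAC gave 4 and 2 (35.3% and 5.91%). Col4a3, the chain encoded head to head with Col4a4, averaged 0.287 ± 0.0995 TPM (SD) over the 7 CAC libraries and 0.721 ± 0.0961 TPM over the 5 Con libraries, with limma adjusted p = 2.44e-05 for a difference of -0.42. Col13a1, a transmembrane collagen of muscle-nerve junctions, averaged 0.794 ± 0.264 TPM and 0.320 ± 0.154 TPM (difference 0.44, limma adjusted p = 2.13e-05). Col28a1, known from glial cells of peripheral nerves, averaged 0.594 ± 0.132 TPM and 0.215 ± 0.110 TPM (difference 0.39, limma adjusted p = 5.77e-05). Col4a3, Col13a1 and Col28a1 also passed the filter after rescaling without mitochondrial and haemoglobin genes, where the differences were -0.77, 0.60 and 0.59 (limma adjusted p = 6.93e-07, 0.000144 and 0.000345). Col13a1 and Col28a1 were highest in CAC at week 8, so that filter may have kept them through CAC libraries. Which libraries kept them was not examined, and their p-values after this rescaling add no support. Read depth is not given in the sources used here, so the counting error of such low levels is unknown.

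At week 2 none of 24 was called against either control (limma, 1.84% of all genes against Con and 0.59% against NCAC), and 0 and 2 collagens had an unadjusted p under 0.05. On the deposited scale only falls were called at week 4. Col4a4 fell by 0.48 ± 0.12 against Con (limma adjusted p = 0.00524; 2.36% of all genes lower, 12.7% higher). Col4a4 and Col15a1 were lower than in NCAC, with differences of -0.37 ± 0.11 and -1.06 ± 0.33 (limma adjusted p = 0.02 and 0.0193; 2.84% of all genes lower, 13.7% higher), and both calls were lost without CAC replicate 2 or 4 or NCAC replicate 5. By median of ratios 0 were higher and 3 lower against Con (8.41% and 7.01% of all genes), and 0 and 5 against NCAC (9.9% and 8.1%). Without mitochondrial and haemoglobin genes 1 was higher and 4 lower against Con (7.18% and 5.81%), and 1 and 5 against NCAC (8.23% and 7.13%).

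At week 6 the comparison gave 5 of 24 higher and 3 lower against Con (50.5% and 5.25% of all genes), and 5 higher and 3 lower against NCAC (47.7% and 6.85%). The higher ones were Col16a1, Col20a1, Col23a1, Col6a5 and Col6a6, and the lower ones Col15a1, Col4a4 and Col8a1, in either comparison. Without Col6a5 and Col23a1, which the filter kept only through CAC libraries, 3 of 22 were higher and 3 lower in either comparison. Col15a1 libraries of week 6 were at 11.9, 13.7, 16.7, 15 and 7.78 TPM in CAC, 27, 41.3, 37.1, 25 and 18.2 TPM in NCAC and 20.1, 25, 20.9, 21.6 and 22.1 TPM in Con. All CAC libraries were below all others (3.29% of all genes against Con, 3.99% against NCAC), yet the Con difference of -0.75 ± 0.33 was near the threshold (limma adjusted p = 0.0469) and lost in 10 of 18 alternatives, whereas the NCAC difference of -1.11 ± 0.33 (adjusted p = 0.00358) kept its call in all 18. Col8a1 differed by -0.48 ± 0.17 from Con and -0.40 ± 0.17 from NCAC, with calls lost in 4 and 9 of 18 alternatives, among them leaving out CAC replicate 1 or 5. The Col16a1 call against NCAC (0.37 ± 0.15) was lost in 8 of 18, among them both rescalings and leaving out CAC replicate 2 or 3 or NCAC replicate 4 or 5.

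The Col6a5 level was higher at each later week in the CAC arm. At week 2 CAC libraries were at 0.0517, 0.0851, 0.202, 0.131 and 0.163 TPM, at week 4 at 0.188, 0.186, 0.241, 0.421 and 0.393 TPM and at week 6 at 0.49, 0.991, 0.722, 1.16 and 0.765 TPM. In the mock and NCAC arms no library of any week passed 0.169 TPM. From week 4 on, all CAC libraries were above all Con libraries of the same week, as were 15.1% of all genes at week 4 and 36% at week 6 (30.3% against NCAC at week 6, where Col6a5 was also apart), although the difference at week 4 was small on the log2(TPM + 1) scale and not called (0.28 ± 0.11, limma adjusted p = 0.0883).

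**Figure D3:**
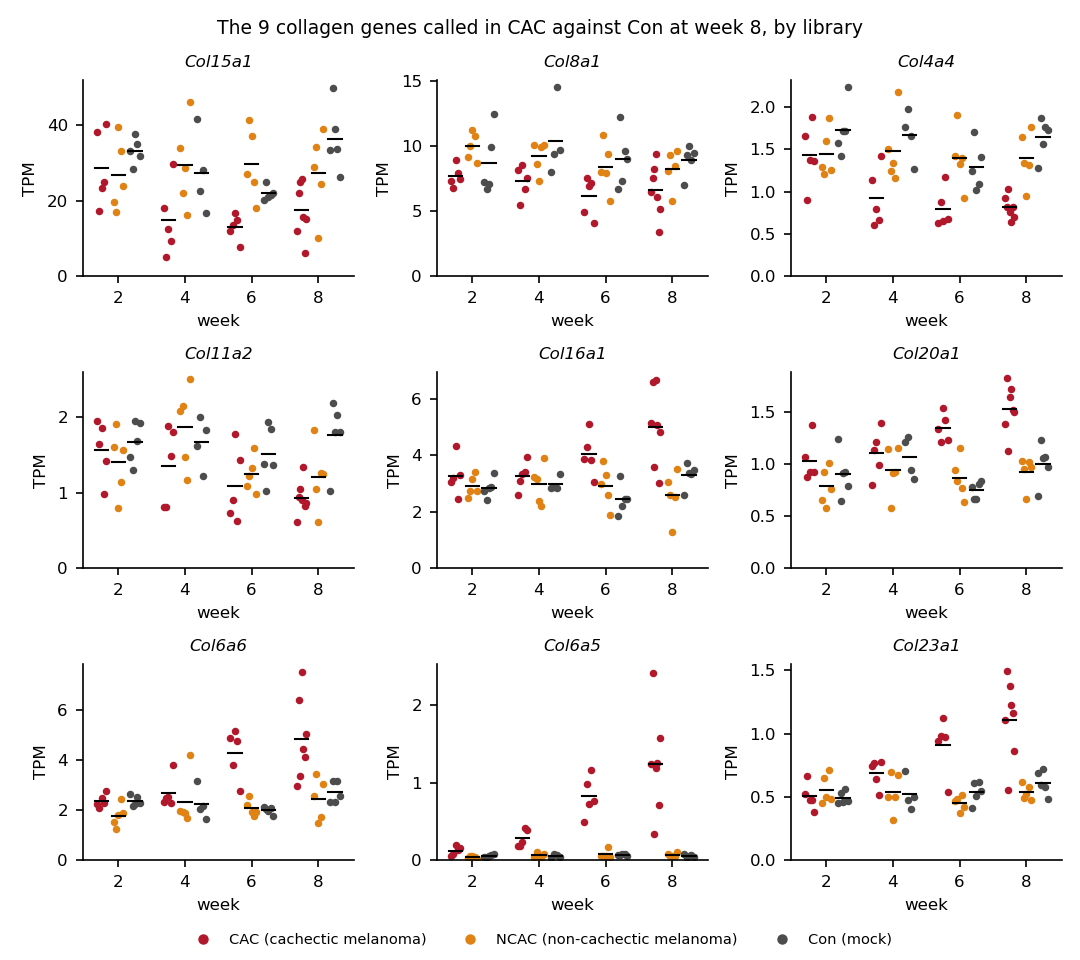
TPM by library and week for the 9 collagens called in CAC against Con at week 8. Points are libraries, bars are group means, and each vertical axis starts at 0. Col4a4 was called lower in CAC than in Con from week 4, and Col15a1 from week 6. Col6a5 climbs in CAC only, to 2.42 TPM in the highest week 8 library.

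Within the CAC arm, 5 of 24 collagens were higher and 3 lower at week 8 than at week 2 (42.6% and 10.1% of all genes), or 3 of 22 and 3 lower without Col6a5 and Col23a1, whose rise in CAC the filter fixed. The rises were Col23a1 (0.48 ± 0.08), Col6a5 (0.95 ± 0.10), Col6a6 (0.75 ± 0.15), Col16a1 (0.47 ± 0.14) and Col20a1 (0.32 ± 0.08). The falls were Col4a4 (-0.41 ± 0.11), Col11a2 (-0.40 ± 0.14) and Col15a1 (-0.74 ± 0.30, limma adjusted p = 0.0345), the last lost in 8 of 20 alternatives, among them without CAC week 2 replicate 1 or 5 or CAC week 8 replicate 1 or 6. In the NCAC and Con arms no collagen was called between these weeks by limma (1 and 0 at an unadjusted p under 0.05), where 0% and 1.36% of all genes were called.

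The test of the difference between arms in that change called 3 collagens higher in CAC than in Con (19.1% of all genes): Col6a5 by 0.95 ± 0.15, Col6a6 by 0.61 ± 0.22 and Col23a1 by 0.37 ± 0.11 (limma adjusted p = 4.95e-06, 0.0335 and 0.0123). None was called lower on the deposited scale (7.45% of all genes). Without Col6a5 and Col23a1, which entered the test through CAC libraries of weeks 6 and 8, the count was 1 of 22, Col6a6. By median of ratios 2 were higher and 1 lower (16.4% and 14.9% of all genes). The other rescaling gave 3 and 2 (16.1% and 11.2%), and Col6a5 was among the higher in both. Against NCAC, Col6a5, Col16a1 and Col23a1 changed more in CAC, by 0.90 ± 0.15, 0.62 ± 0.20 and 0.49 ± 0.11 (limma adjusted p = 8e-06, 0.014 and 0.000745; 29.8% of all genes), and Col4a4 less, by -0.38 ± 0.16 (adjusted p = 0.0483; 5.92%), or 1 higher and 1 lower of 22 without the same 2 genes. The Col4a4 call was lost in 20 of 29 alternatives and the Col6a6 call in 11 of 29, including single libraries of each group. The Col16a1 call was lost without NCAC week 8 replicate 3. For NCAC minus Con no collagen was called by limma (0% of all genes, and 0 collagens at an unadjusted p under 0.05).

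No collagen was called between NCAC and mock hearts at any week. This comparison shares its mock libraries with that of CAC against Con. At week 8, 23 of 24 collagen differences were below 0, with a median of -0.34 beside -0.05 for all genes, and 7 had an unadjusted p under 0.05, but 0 were called by limma (0.71% of all genes were). At weeks 2, 4 and 6, 1, 0 and 0 had an unadjusted p under 0.05, and none was called (0% of all genes were). The week 8 mean of the mock group was itself the highest of the study: the summed collagen level was 511 ± 110 TPM (SD, n = 5) at week 8, 324 ± 34.8 at week 6, 398 at week 4 (n = 4) and 456 at week 2. In CAC it was 461, 323, 351 and 436 TPM, and in NCAC 381, 410, 408 and 373 TPM, at weeks 2, 4, 6 and 8. The mock means spanned a range wider than that of either tumour arm, although no single collagen was called between Con at week 8 and week 2. NCAC replicate 3 of week 8 had the lowest sum of all 61 libraries used, 185 TPM, against 538 TPM in the highest library of its group.

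Levels of most pairs of collagen genes examined varied together from library to library, within one type and across types. After removing the 12 group means, log levels over 61 libraries had Pearson r = 0.948 for Col1a1 with Col1a2 (Spearman rho 0.931), 0.964 for Col1a1 with Col3a1 (rho 0.935), 0.906 for Col3a1 with Col5a2 (rho 0.872) and 0.977 for Col6a1 with Col6a2 (rho 0.975). The head-to-head neighbours gave 0.966 for Col4a1 with Col4a2 (rho 0.957), whose window sequences are shown above, and 0.884 for Col4a4 with Col4a3 (rho 0.848), which start 71 bases apart on chromosome 1. Col4a1 with Col15a1, which lie on different chromosomes, gave 0.801 (rho 0.795). These 7 of 8 pairs each had a permutation p of 1e-05 for both measures, the smallest that 100000 permutations can give (1.1e-05 for r after Benjamini-Hochberg adjustment over 8). Without the 2 libraries farthest out, r was between 0.771 and 0.971. Col6a6 with Col6a5, neighbours in a row, gave 0.288 (permutation p = 0.17, rho 0.166, p = 0.26; 0.317 without the 2 libraries). All chains of a library share its RNA and its scaling, which moves any pair together.

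**Figure D4:**
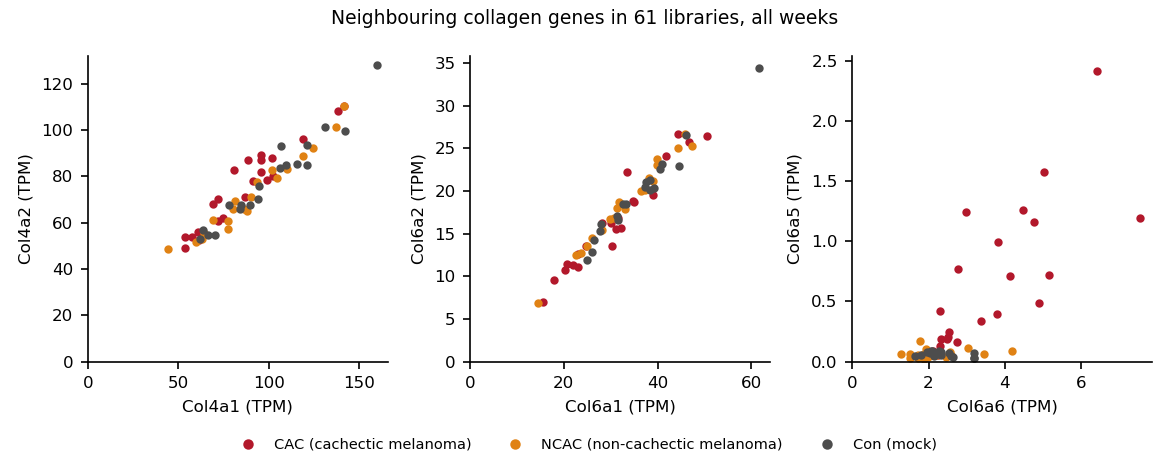
TPM of 3 pairs of collagen genes that neighbour each other on a chromosome, 1 point per library (61 libraries, all weeks), coloured by arm. Col4a1 with Col4a2 and Col6a1 with Col6a2 fall along lines shared by the 3 arms, whereas Col6a5 leaves the floor only in CAC libraries.

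The balance between chains of one type does not depend on the scaling of a library. It differed between CAC and Con at week 8 for types I and V, and for Col4a4 with Col4a3 of type IV. The ratio of Col1a1 to Col1a2 had a lowest, median and highest value of 0.754, 1.00 and 1.33 in CAC at week 8, from 1.27 to 1.59 (median 1.51) in Con and from 0.881 to 1.54 (median 1.24) in NCAC. 6 of 7 CAC libraries were below all Con libraries. The mock mean of this ratio was highest at week 8, at 1.45, beside 1.34, 1.17 and 1.10 at weeks 2, 4 and 6. The difference in the mean log2 ratio was -0.51 ± 0.11 (SE) against Con (exact permutation test, two-sided p = 0.00505, adjusted 0.0212 over 21 tests) and -0.26 ± 0.16 against NCAC (exact p = 0.131). The ratio of Col5a1 to Col5a2 was 1.15, 1.34 and 1.67 (lowest, median, highest) in CAC, from 1.75 to 2.00 in Con and from 1.89 to 2.20 in NCAC, so that no CAC library overlapped either group. Its log2 difference was -0.43 ± 0.07 against Con and -0.53 ± 0.08 against NCAC (exact permutation p = 0.00253 for both, the smallest that 7 against 5 libraries allow, adjusted 0.0133). Mock libraries of week 6 had Col5a1 to Col5a2 ratios from 1.57, which lies within the CAC range of week 8.

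Of the other pairs, Col4a4 to Col4a3 was higher in CAC than in Con by 0.39 ± 0.15 (exact permutation p = 0.0101, adjusted 0.0354), and by 0.28 ± 0.19 than in NCAC (exact permutation p = 0.217, adjusted 0.345). Col4a3 was under 1 TPM on average in every group, so that ratio rests on low levels. The ratio of Col6a6 to Col6a5 had a median of 45.6 in Con and 3.54 in CAC. It is given with no p-value, since Col6a5 was kept in the fit through CAC libraries. Its tests were still counted among the 21 of the adjustment. Without them the adjusted p of Col1a1 to Col1a2, Col5a1 to Col5a2 and Col4a4 to Col4a3 against Con would be larger. For Col4a1 to Col4a2 the difference against Con was -0.07 ± 0.06 and for Col6a1 to Col6a2 0.01 ± 0.07 (exact permutation p = 0.179 and 0.924). Col3a1 to Col1a1 gave 0.14 ± 0.13 (exact permutation p = 0.348). These ratios were chosen for testing after their values had been seen, and Col1a1 to Col1a2, Col5a1 to Col5a2 and Col4a4 to Col4a3 kept, against Con, an exact p under 0.05 when any 1 library was left out. The ratios of other weeks were not tested. At week 4 the highest Col4a1 to Col4a2 ratio in CAC was 1.17, below every Con library (1.22 to 1.34) and every NCAC library (median 1.28), whereas at weeks 2, 6 and 8 the CAC range overlapped at least 1 of the others.

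**Figure D5:**
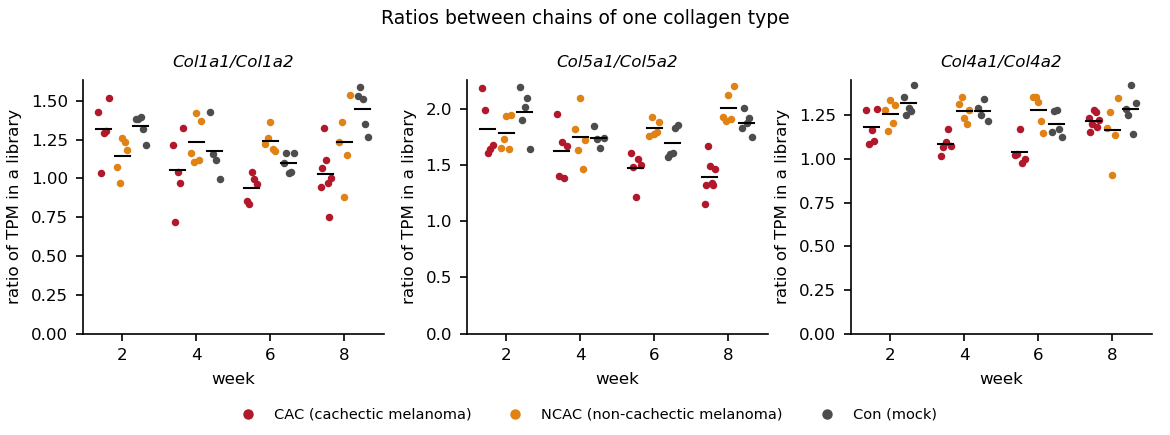
Ratio of TPM between 2 chains of one collagen type within each library, by week and arm. Points are libraries and bars are group means. At week 8 the Col5a1 to Col5a2 ratio of CAC libraries (1.15 to 1.67) lies below both other arms, while the Col4a1 to Col4a2 ratios overlap.

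The counts for genes that make, process and remove collagen, in CAC against Con at week 8, stand beside 50.8% of all genes higher and 9.98% lower as deposited, 26.8% and 24.9% by median of ratios, and 27.7% and 21% without mitochondrial and haemoglobin genes. Of the enzymes and chaperones of collagen synthesis, 11 of 19 tested rose and 3 fell (median 0.29), but 7 rose and 6 fell under either rescaling. P4hb, the shared subunit of prolyl 4-hydroxylase and a protein disulphide isomerase, averaged 243 ± 52.9 TPM in CAC against 106 ± 8.98 TPM in Con (difference 1.16, limma adjusted p = 1.45e-13), Ppib rose by 0.45, Mia3, which loads procollagen into transport vesicles, by 0.39, and the collagen galactosyltransferase Colgalt2 fell by 0.57. Several of these, P4hb among them, also serve other secreted proteins. Of procollagen processing and crosslinking, 9 of 11 rose and 1 fell (median 0.58), and 7 rose and 1 fell by median of ratios. Pcolce, the enhancer of C-propeptide cleavage, rose by 0.88, and the crosslinking oxidases Lox and Loxl4 by 1.61 and 0.82, with Bmp1, the C-proteinase, by 0.61 (limma adjusted p from 9.52e-09 to 4.37e-05).

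Of collagen degradation genes 7 of 8 tested rose and 0 fell (median 0.93), and 7 rose under either rescaling, with 0 falls by median of ratios and 1 without mitochondrial and haemoglobin genes. They included the inhibitor Timp1 (13.8 ± 6.38 TPM in CAC against 2.21 ± 0.495 TPM in Con, difference 2.06), the protease Ctss (1.86), the gelatinase Mmp2 (0.76) and Timp2 (0.50), so that proteases and their inhibitors rose side by side. Of fibril organisers 4 of 13 rose and 3 fell (median -0.05): decorin, Dcn, which coats fibrils, rose by 1.31 to 934 ± 213 TPM, elastin, Eln, by 1.10, Thbs2 by 0.90 and Dpt by 0.65. The falls were Postn, Aspn and Ogn, and Postn, a marker of activated fibroblasts, fell by 1.2. Under either rescaling 4 organisers rose and 4 fell. Of basement membrane partners Nid1 rose (0.37) and the perlecan gene Hspg2 fell (-0.35), the only 2 of 11 called (median 0.04), whereas 0 rose and 6 fell by median of ratios. Of collagen receptors Itgb1 (0.54) and Ddr2 (0.46) rose and Itga1 (-0.34) fell, of 6 tested (median 0.12). In the TGF-beta pathway, the main inducer of fibrillar collagen, 4 of 14 rose and 1 fell (median 0.06), against 3 and 6 by median of ratios. The receptors Tgfbr2, Tgfbr3 and Tgfbr1 rose by 1.63, 0.70 and 0.47, and the latent binding protein Ltbp1 fell by 0.39, while Tgfb1 averaged 9.60 ± 1.25 TPM in CAC against 10.8 ± 0.858 TPM in Con, with no call.

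Other measures moved with the arm beside these results, and their part in them was not tested. Mitochondrially encoded RNA took 50.1 to 55.7% of TPM in CAC libraries of week 8, against 52.9 to 61.1% in Con. The summed level of 5 cardiomyocyte markers, all above 1 TPM in every week 8 group, ran from 6795 to 9120 TPM in CAC at week 8, from 10220 to 11410 TPM in NCAC and from 9152 to 12320 TPM in Con. Myh6 made up most of that sum, with means of 4462, 6627 and 6762 TPM in CAC, NCAC and Con. In the same order, Tnni3 was at 2459, 3051 and 2704 TPM and Actn2 at 674.6, 715.8 and 733.5 TPM. Ttn was at 67.46, 76.56 and 79.01 TPM and Ryr2 at 188.8, 178.6 and 207.7 TPM. Beside the rises, 5 of 5 macrophage markers were above 1 TPM, with a sum of 342 to 612 TPM in CAC, 112 to 216 TPM in NCAC and 163 to 232 TPM in Con, and C1qa was at 190.0, 45.1 and 57.4 TPM. The 6 fibroblast markers summed to 814 to 1104 TPM in CAC, 613 to 938 in NCAC and 748 to 936 in Con. Gsn made up most of that sum, with means of 801.7, 711.9 and 679.0 TPM in the same order. Dpt was at 135.9, 84.3 and 85.4 TPM, Pi16 at 31.23, 19.76 and 21.52 TPM and Pdgfra at 12.65, 7.972 and 7.929 TPM. Tcf21 was at 13.69, 11.44 and 13.61 TPM, and Mfap5 was lowest in CAC, at 4.608, 6.502 and 6.726 TPM.

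Beside the falls of Col15a1 and Col4a4, the 5 endothelial markers summed to 180 to 237 TPM in CAC, 162 to 228 TPM in NCAC and 215 to 278 TPM in Con, where Kdr was at 25.2, 35.8 and 47.3 TPM and Pecam1 at 62.1, 46.6 and 56.4 TPM. The 6 activated fibroblast markers summed to 4.19 to 11.3 TPM in CAC, 4.75 to 13.8 TPM in NCAC and 11.4 to 13.5 TPM in Con. In that order, Postn averaged 2.814, 5.659 and 7.171 TPM, Cilp 0.904, 1.616 and 2.242 TPM and Tnc 0.125, 0.239 and 0.347 TPM. Fap averaged 1.272, 1.26 and 1.58 TPM. Comp and Cthrc1 were highest in CAC, at 1.17, 0.579 and 0.557 TPM and at 0.146, 0.0526 and 0.138 TPM. Mural markers summed to 218 to 318 TPM in CAC, 239.1 to 266.5 TPM in NCAC and 270 to 334 TPM in Con. Rgs5 made up most of that sum, with means of 193.1, 195.1 and 221.6 TPM. Cspg4 was highest in CAC, at 9.448, 4.906 and 6.221 TPM. Pdgfrb was at 24.99, 20.51 and 24.78 TPM, Kcnj8 at 22.75, 21.95 and 22.92 TPM and Myh11 at 16.39, 11.45 and 15.27 TPM. Of the 4 cartilage markers with values, Acan, Chad and Matn1 were under 0.1 TPM in all 3 week 8 groups. Sox9 was at 1.15 TPM in CAC, 0.922 in NCAC and 1.15 in Con. Of the melanocyte markers Tyr and Tyrp1 were under 0.1 TPM in each week 8 group, Mlana was at 4.81 TPM in CAC, 0.204 in NCAC and 0.174 in Con, Dct was at 1.02, 2.61 and 3.04 TPM, and Pmel was at 0.19, 0.112 and 0.11 TPM. Beside the rises of members near 1 TPM, the 4 adipocyte markers averaged a sum of 2.06 TPM in CAC, 1.43 in NCAC and 0.344 in Con, the 4 mesothelial markers 5.56, 2.63 and 3.55 TPM, and the 4 Schwann cell markers 5.87, 3.71 and 5.08 TPM. Sums of keratinocyte and skeletal muscle markers stayed under 5 TPM in every week 8 library. The part of these cell types in the collagen differences was not tested.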

How the data were processed

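RNA sequencing of hearts gave 62 libraries, made with a stranded mRNA kit per the labels' protocols. The authors deposited TPM values per gene symbol, mapped to mm10 per the submitters' processing notes. The aligner, counter, annotation and read depth are not given in the sources used here, and TPM keeps no depth. Groups came from the sample labels.

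Values were transformed as log2(TPM + 1). Every gene that reached 1 TPM in 5 libraries or more entered a limma-trend fit of 12 group means over 61 libraries (R 4.3.3, limma 3.58.1, the data.table package in version 1.17.8). Each of 18 comparisons was adjusted by Benjamini-Hochberg over 12541 genes. Ratios and co-variation were tested by permutation in scipy 1.17.1, with numpy 2.4.6, pandas 2.3.3 and matplotlib 3.10.9 on Python 3.11.15. Coordinates came from GENCODE M21, assumed to match, and start regions from RefSeq. The fit was tested on simulated data.

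All 44 members were accounted for. Members named with values were the 11 reaching 10 TPM in a group, the called members and their partner chains. Members, lists and tests were chosen with earlier results of these data known, and the chain ratios after their values had been seen. Alternatives were a pseudocount of 0.1, no filter, a filter of 5 TPM, 2 rescalings, adding the left-out library, a replicate block, fits restricted to the compared groups, and 1 library left out at a time.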

Additional observations from a re-analysis of the deposited data

Results flagged for a closer look

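In 132 sets of a main collagen in a group, examined for 1 library apart from the rest by Dixon's criterion, 3 had such a library, where chance alone gives about 1 in 20. Col3a1 was at 38.4 TPM in Con week 6 replicate 2, the highest of its group. Col4a5 was at 6.96 TPM in NCAC week 8 replicate 3, the lowest of its group and also the library with the lowest summed collagen level. Col5a1 was at 9.17 TPM in Con week 2 replicate 2, the lowest of its group.

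The change from week 2 to week 8 differed between arms for 5 collagens. Against Con, the change in CAC was larger by 0.367 for Col23a1, 0.952 for Col6a5 and 0.607 for Col6a6 on the log2(TPM + 1) scale. Against NCAC, it was larger by 0.618 for Col16a1, 0.493 for Col23a1 and 0.903 for Col6a5, and for Col4a4 the difference was -0.385. The adjusted p-values (limma) were between 4.95e-06 and 0.0483. Col6a5 and Col23a1 passed the filter on low values through CAC libraries of weeks 6 and 8.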

How the results depend on the processing

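The count of called collagens moved by over 1.5 times in some settings. CAC against Con gave 1 at week 4 and 3 with a pseudocount of 0.1, without a filter or by median of ratios, 5 rescaled without mitochondrial and haemoglobin genes, and 4 with Con week 4 replicate 2. At week 6 it gave 17 without a filter and 3 with a filter of 5 TPM, and at week 8 it gave 18, 3, 14 by median of ratios and 16 in the other rescaling. CAC against NCAC at week 4 gave 1 with the 5 TPM filter or the compared groups alone, 5 and 6 rescaled and 0 with Con week 4 replicate 2. It gave 13 without a filter and 3 with 5 TPM at week 6, and 16 and 4 at week 8. CAC at week 8 against week 2 gave 13 and 2. For the change, CAC minus Con gave 0 with 5 TPM and 5 without mitochondrial and haemoglobin genes, and CAC minus NCAC gave 1 with 5 TPM and 2 with the added library or the groups alone. Fewer or more genes were tested under the filters, and the cause of the other moves was not tested. The share of all genes called moved with the setting too. For CAC against Con at week 8, it was 50.8% higher and 9.98% lower as deposited, and 30.9% and 6.8% without a filter. By median of ratios it was 26.8% and 24.9%, and in the other rescaling 27.7% and 21%. Shares under the 5 TPM filter and with a library left out are not given, so those counts stand without them. Leaving out a library gave 1 to 2 (CAC against Con, week 4), 0 to 1 (CAC against NCAC, week 2), 0 to 5 (week 4) and 0 to 1 (NCAC against Con, week 8). The replicate numbers did not pair the libraries (same-number correlations from -0.276 to 0.412), and the replicate block gave 8 calls for CAC against Con and 11 for CAC against NCAC at week 8.

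Uncalled differences that turned sign were Col1a1 in CAC against Con at week 6 (-0.14 and -0.17 rescaled, -0.043 without CAC replicate 3, and up to 0.199 with another library left out), Col4a1 there (-0.15 and -0.17 rescaled), Col3a1 at week 8 (0.15 with the block, and from -0.18 to 0.19 with a library left out), and Col4a1 and Col4a2 against NCAC at week 8 (-0.013 and -0.087 by median of ratios). With a library left out, the log2 ratio of Col4a1 to Col4a2 in CAC against NCAC ran from -0.012 to 0.13. That of Col6a1 to Col6a2 ran from -0.041 to 0.054 in CAC against Con, from -0.075 to 0.022 in CAC against NCAC and from -0.013 to 0.061 in NCAC against Con.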
